A study of Homo sapiens with 48 samples.

Results

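The comparison described here set the third day of IRE1 knockdown against the second, by RNA sequencing in AMO1, a human myeloma cell line that came from a plasmacytoma. Libraries were taken by their labels alone: those of the shIRE1 lines clone 1 and clone 3 after 48 h and after 72 h of doxycycline (Dox), 3 per clone and time, in all 12 of the 48 libraries of the series. Both lines carried the genotype given as IRE1 sh7,8,9, hairpins against ERN1, the gene of IRE1, that Dox switches on, and each line was a single clone, so that a clone is 1 model and not a population. The cultures of all 4 groups received 0.2 µg/ml Dox, so 48 h against 72 h compared durations of knockdown and of Dox, and cells with a non-targeting hairpin under Dox were not analysed here. The 12 libraries of the same clones at 0 h (no Dox) and 24 h gave the course before the second day, and 6 libraries of clone 1 of the shXBP1 line, with hairpins against XBP1, at 48 and 72 h gave a comparison with another knockdown. Replicates were separate flasks of 1 clone, so their spread is that of parallel cultures.

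IRE1 is a sensor of unfolded proteins in the endoplasmic reticulum, and its endonuclease starts the splicing of XBP1 mRNA, which then codes for a transcription factor that expands the secretory machinery of plasma cells. IRF4 is the transcription factor that sets plasma-cell identity and on which myeloma cells depend. E2F transcription factors drive the genes of entry into DNA synthesis. The study asked how loss of IRE1, apart from its enzymatic activity, affects IRF4 and the cell cycle. The question for the third day is which genes still moved, which turned back and which had reached a plateau.

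The 12 libraries held 24300880 to 36141656 counts, so that 1 count was 0.0277 to 0.0412 per 1e6 total counts. Mitochondrially encoded genes took 3.66 to 4.65% of the counts. CPM of single genes are counts per 1e6 of a library size scaled by TMM, a factor between libraries that was 1.01 to 1.05 in these 12. Plasma-cell markers were all expressed, 10 of 10 above 1 CPM on average, and summed to 9280 to 12300 CPM. Summed markers of other cell types were low (B cell 12 to 15.7 CPM, myeloid 0.389 to 1.01, natural killer 2.98 to 4.99, epithelial 3.82 to 8.35 with 1 marker at 0, stromal 2.14 to 4.03 with 2 markers at 0, erythroid 0 to 0.143), apart from the T-cell list at 254 to 378 CPM, to which CD4 was the main contributor. CD4 itself differed by -0.54 and by -0.49 (log2, 72 h minus 48 h as labelled, called in both clones) and the epithelial marker KRT18 by 0.36 and 0.95 (called in clone 3), and their part in the results was not tested. In such bulk samples fewer cells of a type and less RNA per cell cannot be told apart.

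Libraries of 2 groups went against their clone labels. Every 72 h against 48 h value below has to be read with that, as has every 48 h against 0 h value of clone 3. A check was added after the data were seen: 23 genes that differed at least 2-fold between clone 1 and clone 3 at both 0 h and 24 h were used to place each library on a scale from 0, the mean of clone 1 at 0 and 24 h, to 1, the mean of clone 3. Libraries labelled clone 1 lay at -0.107 to -0.0095 at 0 h, at 0.0188 to 0.103 at 24 h and at 0.058 to 0.122 at 48 h, but at 0.932 to 1 at 72 h. Libraries labelled clone 3 lay at 0.93 to 1 at 0 h, at 1 to 1.04 at 24 h, at 0.00939 to 0.163 at 48 h and at 0.886 to 1.02 at 72 h. So all 6 libraries labelled 48 h stood at the clone 1 end and all 6 labelled 72 h at the clone 3 end, whichever clone they were labelled with. With the 7 markers that differed at least 4-fold, the libraries labelled clone 1 at 72 h lay at 0.998 to 1.06 and those labelled clone 3 at 48 h at -0.29 to -0.253.

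LAMB4, which codes for a laminin chain of basement membranes, was the plainest of these markers. Clone 3 had no LAMB4 count in any of its 6 libraries at 0 and 24 h, whereas clone 1 had 1.19 to 1.82 CPM at 0 h and 35.5, 40.6 and 41.1 CPM at 24 h. The libraries labelled clone 3 at 48 h had 56.1, 54.6 and 62 CPM, and the libraries labelled clone 1 at 72 h had 0 counts in 3 of 3. Groups stay as labelled throughout, because no sample was moved by a measured value. Within either labelled clone, therefore, duration of Dox and clone cannot be told apart, and leaving out the libraries labelled clone 1 at 72 h and clone 3 at 48 h would leave no comparison of 72 h with 48 h within a clone. Whether the labels of these 2 groups were exchanged cannot be told from the sources used here. If they were, each 72 h minus 48 h difference within a labelled clone would be a difference between the clones at 1 duration, and the differences between labelled clones at 48 and at 72 h given further on would be the 72 h minus 48 h differences of clone 1 and of clone 3. Clone 1, clone 3, 48 h and 72 h below are names of labelled groups only.

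**Figure D1:**
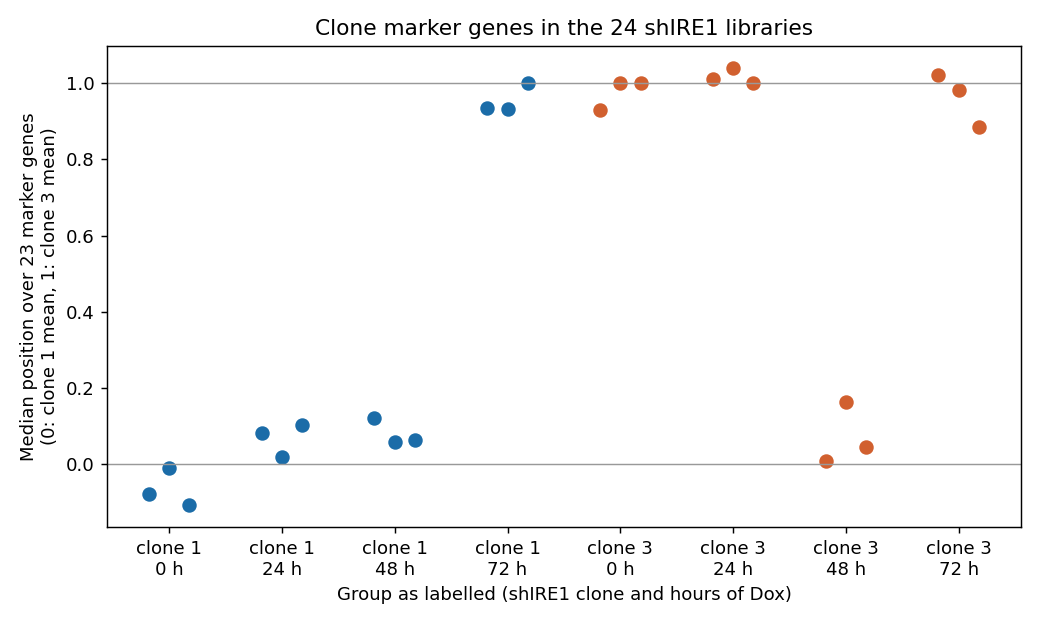
Position of each library on the scale set by 23 genes that differ between the clones (vertical axis, unitless: 0 is the mean of clone 1 and 1 the mean of clone 3 at 0 and 24 h) for each group as labelled (horizontal axis), 1 point per library. Libraries labelled clone 1 at 72 h sit at 0.932 to 1 and libraries labelled clone 3 at 48 h at 0.00939 to 0.163.

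ERN1, the knocked-down gene, was read first, since it checks the labels. In the libraries labelled clone 1, ERN1 had 97.1, 97.8 and 105 CPM at 48 h and 107, 104 and 106 CPM at 72 h. In the libraries labelled clone 3 it had 130, 124 and 124 CPM at 48 h and 127, 131 and 131 CPM at 72 h. Both durations overlapped in each labelled clone and all 12 libraries lay below the 0 h libraries of either clone, 154 to 159 CPM in clone 1 and 432 to 471 CPM in clone 3. The 72 h minus 48 h difference was 0.09 (log2, 95% interval -0.001 to 0.17, adjusted p = 0.638) in clone 1 and 0.04 (-0.06 to 0.14, adjusted p = 0.741) in clone 3.

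IRF4 stood at a lower level than before Dox and also did not pass the test for a change on the third day. Its levels in clone 1 were 636, 568 and 589 CPM at 48 h and 618, 622 and 625 CPM at 72 h, against 1306 to 1410 CPM at 0 h and 1009 to 1044 CPM at 24 h. In clone 3 they were 313, 326 and 340 CPM at 48 h and 340, 335 and 368 CPM at 72 h, against 1438 to 1511 CPM at 0 h and 956 to 1086 CPM at 24 h. The libraries labelled clone 3 were lower than those labelled clone 1 at both durations, without overlap, and 48 h and 72 h overlapped within each labelled clone. The intervals of the 72 h to 48 h ratio were 0.984 to 1.11 in clone 1 and 0.986 to 1.16 in clone 3, so that a further fall of IRF4 by more than these bounds was not seen between libraries as labelled.

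XBP1, the substrate of the endonuclease, had 136, 136 and 134 CPM at 48 h and 137, 143 and 145 CPM at 72 h in clone 1. In clone 3 it had 113, 120 and 119 CPM at 48 h and 125, 124 and 127 CPM at 72 h. The 72 h libraries lay above the 48 h libraries in both labelled clones, by a ratio of 1.05 (0.997 to 1.11) and of 1.07 (0.973 to 1.17), and neither difference passed the test.

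**Figure D2:**
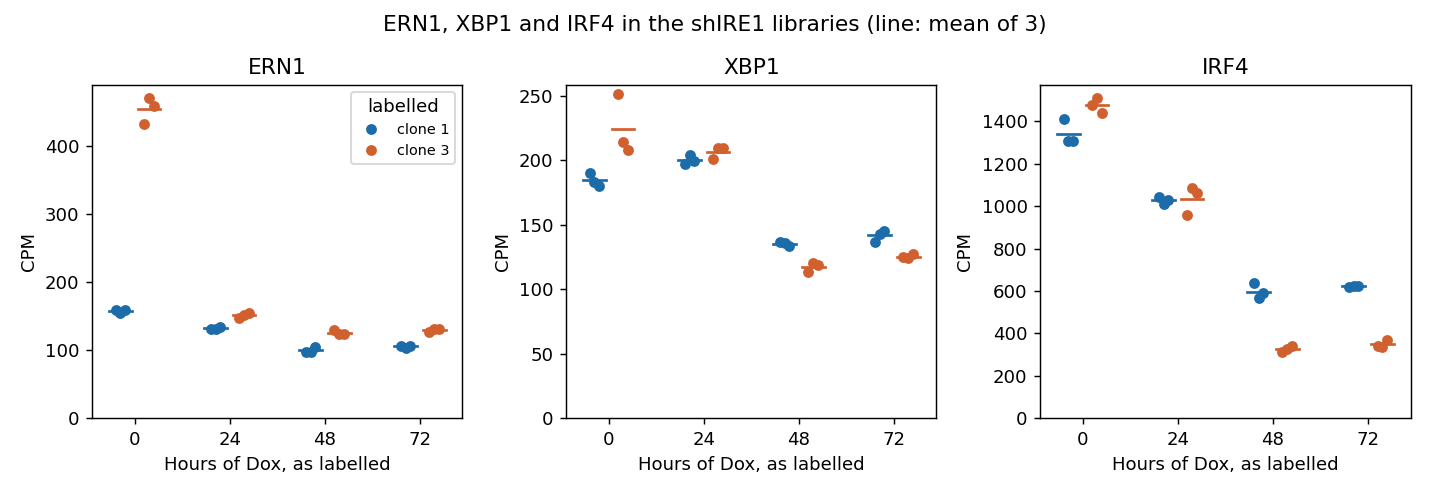
ERN1, XBP1 and IRF4 in CPM (vertical axes, starting at 0) against labelled hours of Dox, 1 point per library with a short line at each group mean of 3, for the libraries labelled clone 1 and clone 3. From 48 to 72 h the ratios of the means were 1.03 to 1.07 for all 3 genes.

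Between 72 h and 48 h few genes passed the test in either labelled clone, with TLR7 and HBE1 the largest rises and LAMB4 and TENM3 the largest falls among the better expressed genes called in both. In clone 1, 149 of 17154 genes tested were called (0.869%), 64 higher and 85 lower at 72 h, and 48 of them differed at least 2-fold (edgeR quasi-likelihood test, adjusted p below 0.05). In clone 3, 161 of 17204 were called (0.936%), 88 higher and 73 lower, with 48 at least 2-fold. Leaving out 1 library at a time left 99 to 136 calls in clone 1, with 99 without the 48 h replicate 2 and 99 without the 72 h replicate 3, and 80 to 108 in clone 3. In clone 3 the count fell by over 1.5 times without each 48 h library (80 without replicate 1, 85 without replicate 2, 80 without replicate 3) and without the 72 h replicate 1 (106) or replicate 3 (102). With the clone 3 24 h replicate 1 left out of the fit, 230 genes were called in clone 3. Of 16795 genes tested in both clones, 44 were higher (0.262%) and 45 lower (0.268%) at 72 h in both, and 1 was called in opposite directions.

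TLR7, HBE1 and BTK headed the genes that were higher at 72 h in both labelled clones. All 3 were among the 23 marker genes that differed between the clones at 0 and 24 h. The largest rises and falls were named only among genes whose 48 and 72 h libraries did not overlap in either clone, so their lack of overlap is no further evidence. TLR7, an endosomal receptor for single-stranded RNA, had 3.08, 2.55 and 2.84 CPM at 48 h and 24.3, 24.8 and 24.1 CPM at 72 h in clone 1, and 3.4, 2.56 and 2.6 against 29.2, 31.8 and 32.3 CPM in clone 3. Its log2 difference was 3.12 ± 0.12 (SE, n = 3 against 3, adjusted p = 2.61e-12) and 3.463 ± 0.11 (adjusted p = 7.23e-11). BTK, the kinase that carries B-cell receptor signals, had 4.99, 4.75 and 5.69 CPM at 48 h and 21.8, 23.5 and 22.6 CPM at 72 h in clone 1, and 2.95, 3.14 and 2.21 against 18, 19.5 and 19.6 CPM in clone 3. The log2 difference of BTK was 2.15 ± 0.09 and 2.78 ± 0.11.

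DOCK8, WAS and ARHGEF6, which act on the actin skeleton, were higher in the same labelled groups. They were marker genes of the clones too. At 24 h the mean of DOCK8 was 11.6 CPM in clone 1 and 31.4 CPM in clone 3, and that of WAS 2.47 and 8.28 CPM. DOCK8, an exchange factor for CDC42, differed by 1.64 ± 0.09 and 1.62 ± 0.09 (log2), WAS, the actin regulator lacking in Wiskott-Aldrich syndrome, by 1.55 ± 0.14 and 1.61 ± 0.12, and ARHGEF6, an exchange factor for RAC1 and CDC42, by 1.96 ± 0.14 and 1.58 ± 0.15. WAS had 2.17, 2.53 and 2.45 CPM at 48 h and 7.1, 6.61 and 7.18 CPM at 72 h in clone 1. In clone 3 WAS had 2.2, 2.45 and 2.39 CPM at 48 h and 7.83, 7.5 and 6.13 CPM at 72 h. None of these groups overlapped, as the choice of genes required.

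The other large rises were of mixed kind, and HBE1, TMEM132D-AS1, RASSF8 and INHBE among them were marker genes of the clones. HBE1, the embryonic globin, differed by 2.88 ± 0.12 and 3.09 ± 0.15, but its annotated span overlaps HBG2 and olfactory receptor genes, so its reads may belong to a neighbour. TMEM132D-AS1 (1.76 and 1.77) overlaps TMEM132D on the other strand. TMEM132D itself was called lower at 72 h in both labelled clones (-2.40 and -2.76), at a low level (mean log2 CPM -1.15). LINC01234, a long non-coding RNA, differed by 1.10 and 1.26, RASSF8 by 1.24 and 1.10, HRASLS2, a phospholipase-like enzyme, by 0.64 and 1.04, and INHBE, an inhibin chain, by 0.88 and 0.77. IFIT2, an interferon-stimulated gene, had 1.39, 1.31 and 1.38 CPM at 48 h and 2.98, 2.07 and 2.53 CPM at 72 h in clone 1, and 1.49, 1.94 and 1.42 against 4, 3.94 and 3.77 CPM in clone 3. Its difference was 0.90 ± 0.17 in clone 1 and 1.26 ± 0.15 in clone 3, and the clone 1 call was lost without the 48 h replicate 2 (adjusted p = 0.0689) or the 72 h replicate 1 (adjusted p = 0.0834).

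LAMB4 and TENM3 headed the genes that were lower at 72 h in both labelled clones. Both were marker genes of the clones. LAMB4 fell from 46, 48.4 and 44.7 CPM to 0 counts in 3 of 3 libraries in clone 1 and from 56.1, 54.6 and 62 CPM to 0 counts in 3 of 3 in clone 3, which set the 72 h level at least 371-fold lower in clone 1 and at least 508-fold lower in clone 3 (against 3 counts per library). TENM3, a teneurin of cell contacts, had 16.2, 15.2 and 15.2 CPM at 48 h and 1.83, 1.78 and 1.73 CPM at 72 h in clone 1, and 18.8, 17.3 and 17.2 against 1.63, 1.57 and 1.79 CPM in clone 3. It fell by 3.12 ± 0.12 and by 3.41 ± 0.13 on the log2 scale (adjusted p = 7.1e-13 and 5.96e-10). The groups did not overlap, again as the choice of genes required.

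SV2A, SORL1, ASS1 and PRKCB fell by less. SV2A, a synaptic vesicle protein, had 33.8, 35.2 and 35.3 CPM at 48 h and 15.8, 16.9 and 14.7 CPM at 72 h in clone 1, and 32.6, 31.3 and 32.6 against 14.4, 14 and 15.7 CPM in clone 3. SORL1, a sorting receptor, had 131, 141 and 138 CPM at 48 h against 74.1, 76.5 and 77.3 CPM at 72 h in clone 1 and 174, 176 and 172 against 87.8, 88.4 and 98.1 CPM in clone 3. The SORL1 difference was -0.84 ± 0.05 and -0.93 ± 0.09. ASS1, which makes argininosuccinate in the synthesis of arginine, fell by 1.17 and by 1.22, PRKCB, protein kinase C beta, by 1.08 and 0.92, and PLXND1, a semaphorin receptor, by 0.85 and 1.15. In clone 1 the PLXND1 call (adjusted p = 0.0374) was lost in 5 of 6 fits that left out 1 library of the 48 or 72 h groups.

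**Figure D3:**
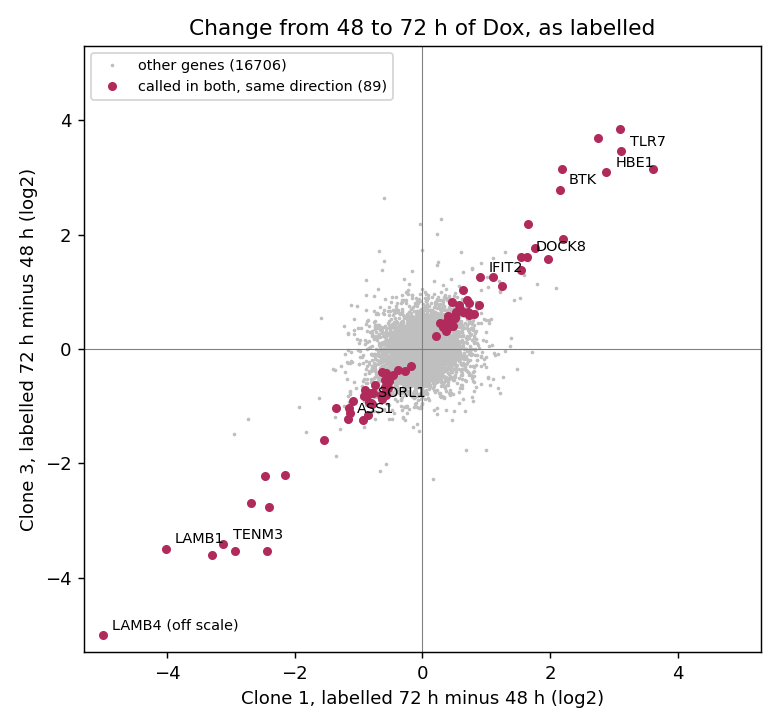
Fitted 72 h minus 48 h difference (log2) of each gene tested, in the libraries labelled clone 1 (horizontal axis) and clone 3 (vertical axis), with genes called in both marked in red, some written beside their points, and LAMB4 drawn at the lower left corner as off scale. The 44 genes higher and 45 lower in both lie near the diagonal, such as TENM3 at -3.12 and -3.41 and TLR7 at 3.12 and 3.463.

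The 89 genes called in the same direction in both labelled clones were then looked up in the difference between the clones before the second day, which uses other libraries. At 24 h, 74 of the 89 differed between clone 3 and clone 1 and 74 of these did so in the direction of the 72 h minus 48 h difference, beside 7.95% of all genes called between the clones at 24 h. At 0 h, 67 of 89 differed, 59 in that direction, beside 46.0% of all genes. TLR7, for example, had 2.1, 1.84 and 1.66 CPM in clone 1 and 15.6, 15.4 and 13.9 CPM in clone 3 at 24 h, and BTK had 9.98, 10.3 and 8.88 CPM against 29.8, 33.3 and 30 CPM. The part of the clone in the 72 h minus 48 h calls cannot be told apart from that of time.

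Some of the 89 genes lay beside each other in the genome. By the GENCODE annotation of GRCh38, 14 of 89 had another of them within 1 Mb that moved in the same direction, among them LAMB4 (chr7:108023548-108130361, minus strand) with LAMB1, and HBE1 (chr11:5268345-5505652, minus strand) with HBG2. How many of any 89 tested genes would have such a neighbour was not computed. Some of the 14 overlap in their annotated spans, such as HBE1 with HBG2 and OR51B4, so that reads may be shared. TLR7 (chrX:12867072-12890361, plus strand), BTK (chrX:101349338-101390796, minus strand) and WAS (chrX:48676596-48691431, plus strand) were 3 of the 5 genes on chromosome X, 5.62% of the 89 beside 3.53% of all genes tested. Of the 89, 81 were protein-coding genes.

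Few members of the lists of the unfolded protein response and of the cell cycle were called between the labelled 48 and 72 h libraries, as was so for all genes. In the list of the IRE1 arm, the sensor with XBP1 and the secretory genes that spliced XBP1 is known to switch on, 0 of 30 genes were called in clone 1 and 0 of 30 in clone 3 (median log2 differences -0.01 and -0.02, all genes -0.00 and 0.01). The 95% interval of the difference lay within 0.322 of 0 on the log2 scale for 30 of 30 of these genes in clone 1 and 26 of 30 in clone 3, beside 54.6% and 43.9% of all genes tested. For mitosis it did so for 49 of 50 and 38 of 50 genes, and for DNA replication for 46 of 50 and 35 of 50, with list medians in clone 3 of -0.09 for mitosis and -0.12 for DNA replication, and with 1 mitosis gene, CDC25B, called higher in clone 1 and 1 replication gene, ASF1B, called lower in clone 3. The CDC25B call was lost in 4 of 6 fits that left out 1 library and the ASF1B call in 6 of 6. Of the interferon-stimulated genes, fewer intervals were that narrow, 12 of 32 and 10 of 32, and IFIT2 was the 1 gene called in both clones.

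Single genes passed the test in 1 labelled clone. PSPH, an enzyme of serine synthesis from the ATF4 list, had 33.9, 34.4 and 32.9 CPM at 48 h and 41.8, 41.6 and 41.6 CPM at 72 h in clone 1, 0.31 ± 0.05 higher at 72 h (adjusted p = 0.00276), a call that held without each of the 6 libraries in turn. CCND2, cyclin D2, was higher in clone 1 by 0.19 ± 0.04 (adjusted p = 0.032), a call lost in 4 of 6 such fits. SLAMF7, the plasma-cell surface receptor, had 63.2, 61.9 and 64.8 CPM at 48 h and 88.1, 89.3 and 90.6 CPM at 72 h in clone 3, 0.50 ± 0.05 higher at 72 h (adjusted p = 4.21e-05), and differed by 0.15 ± 0.05 in clone 1 (adjusted p = 0.31). HMGCS1 and INSIG1, an enzyme and a regulator of cholesterol synthesis, were higher at 72 h in clone 3 by 0.30 (adjusted p = 0.00913) and 0.35 (adjusted p = 0.0159). The HMGCS1 call was lost without the clone 3 48 h replicate 1 (adjusted p = 0.0911), and the INSIG1 call without the 48 h replicate 1 (0.0974), the 48 h replicate 2 (0.0602) or the 72 h replicate 2 (0.0671). RSAD2, the antiviral enzyme viperin, differed by 1.59 ± 0.21 in clone 3 (adjusted p = 0.000585) and by 1.11 ± 0.28 in clone 1 (adjusted p = 0.0734).

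A plateau was taken as a gene at least 2-fold changed and called at 48 h against 0 h whose 95% interval from 48 to 72 h lay within 0.322 of 0 on the log2 scale. In the libraries labelled clone 3 the step from 0 to 48 h also crosses the marker scale, so clone and duration cannot be told apart in it. Intervals that narrow were held by 54.6% of all genes tested in clone 1 and 43.9% in clone 3, larger shares than among the changed genes. In clone 1, 830 of 2674 changed genes met the definition (31%), 57 were called between 48 and 72 h and 1788 met neither. In clone 3 the numbers were 787 of 3261 (24.1%), 86 and 2388, and 380 genes met it in both. Among them, MAGT1, which serves magnesium transport and protein glycosylation, fell by 3.59 in clone 1 and by 3.34 in clone 3 from 0 to 48 h and had 14.4, 15.4 and 13.2 CPM at 72 h in clone 1 after 15, 13.1 and 15.1 CPM at 48 h. EMC7, a subunit of the membrane protein insertase of the endoplasmic reticulum, fell by 2.82 and by 3.00, and YWHAZ, an adaptor of the 14-3-3 family, by 2.16 in both, with 48 to 72 h differences of 0.02 to 0.11. ABCA1, the cholesterol exporter, rose by 2.55 and 3.27 from 0 to 48 h and then differed by -0.04 and 0.05. CCDC141 and TTN, which overlap so that reads may be shared, rose by 3.25 and 4.35 and by 2.34 and 3.18.

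Genes called from 48 to 72 h were sorted by their earlier change in the same labelled clone. In clone 1 39 continued in the direction of their 0 to 48 h change, 79 turned against it and 31 had not been called by 48 h, and in clone 3 36 continued, 103 turned and 22 had not been called. Both steps share the 48 h libraries, so the change from 0 to 24 h, which does not, was used as well. Against that step 36 continued, 71 turned and 42 had not been called in clone 1, and 47 continued, 53 turned and 61 had not been called in clone 3. Of all genes tested in clone 1, 11214 of 17154 were called at 48 h against 0 h and 10524 at 24 h against 0 h. In clone 3 the numbers were 10871 and 7947 of 17204. Whether the turns exceed what these shares would give was not tested. Without single 48 or 72 h libraries the counts against 0 to 48 h fell to 25 to 30 continued and 48 to 70 turned in clone 1, and to 13 to 26 and 51 to 72 in clone 3, lowest without clone 1 48 h replicate 1 (25 continued) and replicate 2 (48 turned) and without clone 3 48 h replicate 3 (13 continued) and replicate 1 (51 turned). Those against 0 to 24 h came to 23 to 35 continued and 44 to 65 turned in clone 1, lowest without 48 h replicate 2 and without 72 h replicate 3. In clone 3 they came to 23 to 33 continued and 22 to 33 turned, lowest without 48 h replicate 3 and without 48 h replicate 1, ranges that overlap. Of the genes that turned against the 0 to 48 h change, 61 had risen and then fell and 18 had fallen and then rose in clone 1, and 50 and 53 in clone 3. TLR7 in clone 3, with 19.7, 19.3 and 17.8 CPM at 0 h, was among those that fell and then rose as labelled. Libraries labelled clone 3 lay on the marker scale at 0.93 to 1 at 0 h, 0.00939 to 0.163 at 48 h and 0.886 to 1.02 at 72 h. Clone and duration therefore cannot be told apart in the clone 3 turns, on either step. Libraries labelled clone 1 lay at 0.058 to 0.122 at 48 h and at 0.932 to 1 at 72 h. In the clone 1 turns, clone and duration thus cannot be told apart on the step from 48 to 72 h. Among the largest turns back called in both clones were LAMB4, SV2A, FSTL4, PRKCB and SORL1, all higher at 48 h than at 0 h and lower again at 72 h as labelled. SORL1 in clone 1 stood at 41.4, 41.3 and 40.2 CPM at 0 h and 83.7, 74 and 77.5 CPM at 24 h, so that its 72 h values of 74.1 to 77.3 CPM lay with those of 24 h.

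The change from 48 to 72 h differed between the labelled clones for 3 of 17871 genes (0.0168%), with 746 at an unadjusted p below 0.05. LGMN, the lysosomal protease legumain, had 332, 305 and 316 CPM at 48 h and 267, 256 and 240 CPM at 72 h in clone 1, and 220, 237 and 232 against 309, 319 and 273 CPM in clone 3. It moved in opposite directions, -0.32 and 0.39, and the difference of 0.70 ± 0.08 had an adjusted p of 0.000113. LGMNP1 is a pseudogene of LGMN that may share its reads (difference 0.64 ± 0.11, adjusted p = 0.02), and MTCYBP35, a copy of a mitochondrial gene, differed by 0.49 ± 0.08 (adjusted p = 0.02). The LGMN difference passed the test without each of the 12 libraries in turn, whereas the LGMNP1 call was lost in 10 of 12 such fits and the MTCYBP35 call in 8 of 12. The clone 3 change of LGMN alone was not called without its 48 h replicate 1 (adjusted p = 0.0604).

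The shIRE1 change from 48 to 72 h was set against that of clone 1 of shXBP1 over the same hours of Dox. The mean shIRE1 change differed from the shXBP1 change for 132 of 18146 genes (0.727%), 58 higher and 74 lower. TLR7 differed by -0.14 in the shXBP1 clone and by 3.43 ± 0.14 more in the shIRE1 clones (adjusted p = 3.09e-17), and BTK by -0.04 and by 2.51 ± 0.09 more (adjusted p = 9.33e-19). TENM3 differed by 0.06 in the shXBP1 clone, with a shIRE1 minus shXBP1 difference of -3.32 ± 0.11 (adjusted p = 9.77e-20). TLR7, BTK and TENM3 are marker genes, and both shIRE1 changes run from the clone 1 to the clone 3 end of the marker scale. These differences therefore cannot be assigned to the knockdown, to its duration or to the clone. PFKFB4, a regulator of glycolysis, was 1.52 higher at 72 h in the shXBP1 clone, and the shIRE1 minus shXBP1 difference was -1.68 ± 0.23 (adjusted p = 2.11e-05).

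Since both groups labelled 48 h stood at one end of the marker scale and both labelled 72 h at the other, clone 3 minus clone 1 at the same labelled duration compared libraries of like marker position. This comparison was added after the data were seen, and it cannot be told from the labels whether it shows a difference of clone or of duration. At 48 h 4735 of 17871 genes were called, 2143 higher and 2592 lower in clone 3, and at 72 h 3645, 1639 higher and 2006 lower. The 2 comparisons share no library, and 1091 genes were higher (6.10%) and 1590 lower (8.90%) in both, with 2 in opposite directions. Between the labelled clones 8221 genes (46.0%) were called at 0 h and 1421 (7.95%) at 24 h. ERN1 was 0.34 ± 0.04 higher at 48 h and 0.29 ± 0.04 higher at 72 h in clone 3 (adjusted p = 2.12e-06 and 1.35e-05), while IRF4 was lower, -0.87 ± 0.05 and -0.84 ± 0.05 (adjusted p = 2.14e-12 and 5.87e-12), and XBP1 lower by -0.20 and -0.18.

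**Figure D4:**
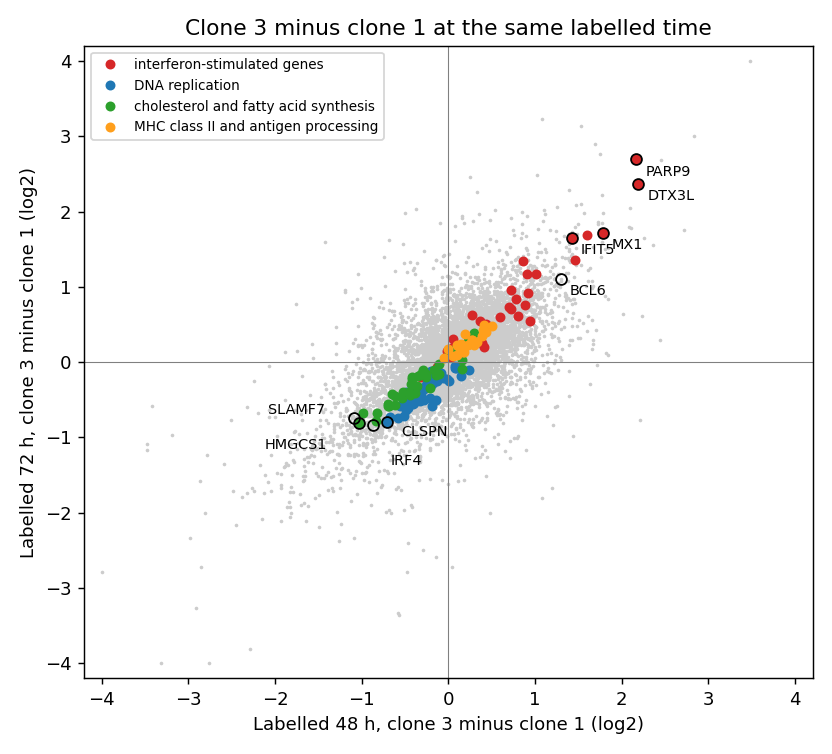
Fitted clone 3 minus clone 1 difference (log2) of each gene tested at 48 h (horizontal axis) and at 72 h (vertical axis), with members of the interferon, DNA replication, cholesterol and antigen presentation lists coloured and genes beyond 4 drawn at the edge. Interferon-stimulated genes such as PARP9 (2.17 and 2.69) lie at the upper right and cholesterol genes such as HMGCS1 (-1.03 and -0.81) at the lower left.

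Interferon-stimulated genes, the antiviral genes that interferon switches on, formed the list with the highest median. In the libraries labelled clone 3, 19 of 32 were higher at both labelled durations and 0 lower, with list medians of 0.71 and 0.62 beside 0.015 for all genes at both, and 16 to 20 genes were higher without 1 library at a time. Of all genes, 6.10% were higher and 8.90% lower at both durations, to be set beside the counts of this list and of those that follow. PARP9 and DTX3L, partners in a ubiquitin ligase complex that start next to each other on opposite strands, differed by 2.17 and 2.69 and by 2.19 and 2.37. DTX3L had 5.35, 8.47 and 7.78 CPM in clone 1 at 48 h and 32.9, 34.2 and 31.7 CPM in clone 3, and at 72 h 5.3, 6.32 and 5.9 against 29, 28.8 and 33.3 CPM. No libraries overlapped. IRF1, a transcription factor, was 0.78 and 0.84 higher, and MX1, a GTPase that blocks viruses, 1.78 and 1.72 from levels of 0.572 to 0.869 CPM in clone 1.

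Promoters of these genes are shown because they carry the letters of the interferon response element. In RefSeq promoters on GRCh38.p14 (250 bases before to 50 after each gene's start), GAAA followed by any 2 bases and GAAA was searched on both strands and was found in 996 of 27305 promoters (3.65%), in 16 of 24 interferon-list promoters found (66.7%) and in 9 of 15 of those higher at both labelled durations. Capitals mark 1 match in each stretch, in the gene's direction, and the IFIT1 stretch holds another match in lower case. A match is a description of letters and not of binding.
IFIT5, chr10:89414498-89414557, plus strand: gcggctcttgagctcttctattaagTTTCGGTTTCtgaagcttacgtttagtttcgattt
DDX60, chr4:168318771-168318830, minus strand: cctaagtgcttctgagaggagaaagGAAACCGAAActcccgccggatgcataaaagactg
EPSTI1, chr13:42992257-42992316, minus strand: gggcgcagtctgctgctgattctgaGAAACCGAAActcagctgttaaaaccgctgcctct
IFIT1, chr10:89392482-89392541, plus strand: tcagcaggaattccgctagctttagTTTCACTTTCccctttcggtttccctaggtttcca
ISG20, chr15:88638922-88638981, plus strand: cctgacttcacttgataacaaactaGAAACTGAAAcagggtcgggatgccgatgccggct

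The genes of these promoters differed as follows between the labelled clones. IFIT5 had 1.69, 2.08 and 2.33 CPM in clone 1 and 5.41, 5.19 and 5.69 CPM in clone 3 at 48 h, and 1.87, 1.31 and 1.69 against 4.76, 5.42 and 5.06 CPM at 72 h, without overlap (1.42 ± 0.14 and 1.65 ± 0.15). EPSTI1 differed by 1.60 and 1.69, DDX60, an RNA helicase, by 1.46 and 1.35, IFIT1, which binds viral RNA, by 0.91 and 1.17, and ISG20, an exonuclease, by 0.70 and 0.73. At 24 h the same list had a median of 0.03 between the labelled clones and at 0 h of 0.27.

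Antigen presentation genes were higher in the libraries labelled clone 3 too. Of 23 genes of the list of MHC class II and antigen processing, 12 were higher and 0 lower at both labelled durations (medians 0.229 and 0.235). TAP1, the peptide transporter, had 155, 161 and 156 CPM in clone 1 and 217, 226 and 226 CPM in clone 3 at 48 h, and 155, 152 and 148 against 215, 221 and 199 CPM at 72 h. HLA-DQB1 was 0.42 higher at both labelled durations, PSMB9, an immunoproteasome subunit, 0.41 and 0.49, and NLRC5, the activator of MHC class I genes, 0.43 and 0.40.

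DNA replication genes were lower as a list in the libraries labelled clone 3, with 0 of 50 higher and 36 of 50 lower at both labelled durations and medians of -0.31 and -0.40. CDC6, which loads the replicative helicase, had 84.3, 79 and 83.8 CPM in clone 1 and 54.3, 55.5 and 55 CPM in clone 3 at 48 h, and 82.5, 82.2 and 82 against 47.2, 47 and 53.7 CPM at 72 h. The groups did not overlap (-0.58 ± 0.05 and -0.74 ± 0.05). CLSPN, a checkpoint adaptor at the fork, differed by -0.71 and -0.79, ORC6 of the origin recognition complex by -0.67 and -0.73, and MCM10, a helicase activator, by -0.52 and -0.71. The E2F-type letters TTTNNCGC, searched on both strands, were in 25 of 43 promoters of the list (58.1%), in 16 of 31 of those lower at both labelled durations and in 1884 of 27305 of all promoters (6.9%).

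Mitosis genes and cell-cycle regulators were lower by less. Of the mitosis list 27 of 50 were lower and 0 higher at both labelled durations (medians -0.22 and -0.34), among them MAD2L1, a spindle checkpoint protein (-0.42 and -0.52), CCNA2, cyclin A2 (-0.32 and -0.49), and CDK1 (-0.33 and -0.43). Of 26 cell-cycle regulators that the study names, 10 were lower and 1, CDKN2C, higher; the study chose that list with these lines in view, so it is not independent evidence. CDC25A, the phosphatase that activates CDK2, differed by -0.47 and -0.61, E2F1 by -0.39 and -0.55 and E2F8 by -0.36 and -0.59. CCND2 differed by 0.08 and 0.00, and CDK6 by 0.04 and -0.06, with no call.

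Cholesterol and fatty acid synthesis had 23 of 36 genes lower and 1 higher in the libraries labelled clone 3 at both durations (medians -0.39 and -0.31). HMGCS1 had 516, 476 and 504 CPM in clone 1 and 228, 248 and 255 CPM in clone 3 at 48 h, and 516, 529 and 534 against 285, 297 and 318 CPM at 72 h. It differed by -1.03 ± 0.05 and -0.81 ± 0.05, INSIG1 by -0.98 and -0.67, and MSMO1 and IDI1, enzymes of the pathway, by -0.83 and -0.78 and by -0.82 and -0.68. The 1 higher gene was ABCA1, which exports cholesterol (0.29 and 0.39). At 24 h the list's median between the labelled clones was 0.03. The sterol response letters TCACNCCAC, searched on both strands, were in 1 of 29 promoters of the list and in 1.15% of all promoters.

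Plasma-cell identity genes were split. Of 25 genes, 4 were higher and 10 lower in the libraries labelled clone 3 at both durations, beside 6.10% higher and 8.90% lower of all genes. Surface receptors of plasma cells were among the lower ones: SLAMF7 differed by -1.08 ± 0.05 and -0.74 ± 0.05, and TNFRSF17, the receptor BCMA, had 88.4, 81 and 83.9 CPM in clone 1 and 42.6, 46.3 and 46.1 CPM in clone 3 at 48 h (-0.91 and -0.72). JCHAIN, the joining chain of secreted antibody, differed by -0.51 and -0.38. BCL6, the repressor of germinal-centre B cells, was higher by 1.30 and 1.10, at levels of 0.343 to 0.522 CPM in clone 1 and 0.825 to 1.24 CPM in clone 3.

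Further lists moved less, and their counts stand beside 6.10% higher and 8.90% lower of all genes at both labelled durations. Ribosome biogenesis had 13 of 40 genes lower and 0 higher, led by NPM1, nucleophosmin (-0.76 and -0.73), heat shock proteins 9 of 24 lower and 1 higher (HSPB1 -0.72 and -0.83, BAG3 0.56 and 0.43), and proteasome subunits 8 of 30 lower and 0 higher. Without single 72 h libraries these last counts fell to 5 heat shock genes (clone 1 replicate 2, clone 3 replicate 1 or 2) and to 4 (clone 3 replicate 1) or 5 proteasome genes (clone 1 replicate 2 or 3, clone 3 replicate 2). The IRE1 arm had 7 of 30 lower (4 without clone 1 72 h replicate 3), among them HERPUD1 of endoplasmic-reticulum-associated degradation (-0.43 and -0.31), and 2 higher, ERN1 itself and EDEM1 (0.35 and 0.26). The 2 of 30 higher in the IRE1 arm and the 1 of 24 higher among heat shock genes were near or below the share of all genes. BCL2L11, the pro-apoptotic protein BIM, had 260, 266 and 268 CPM in clone 1 and 424, 421 and 426 CPM in clone 3 at 48 h, and 243, 256 and 250 against 386, 386 and 385 CPM at 72 h (0.68 ± 0.03 and 0.63 ± 0.03).

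**Figure D5:**
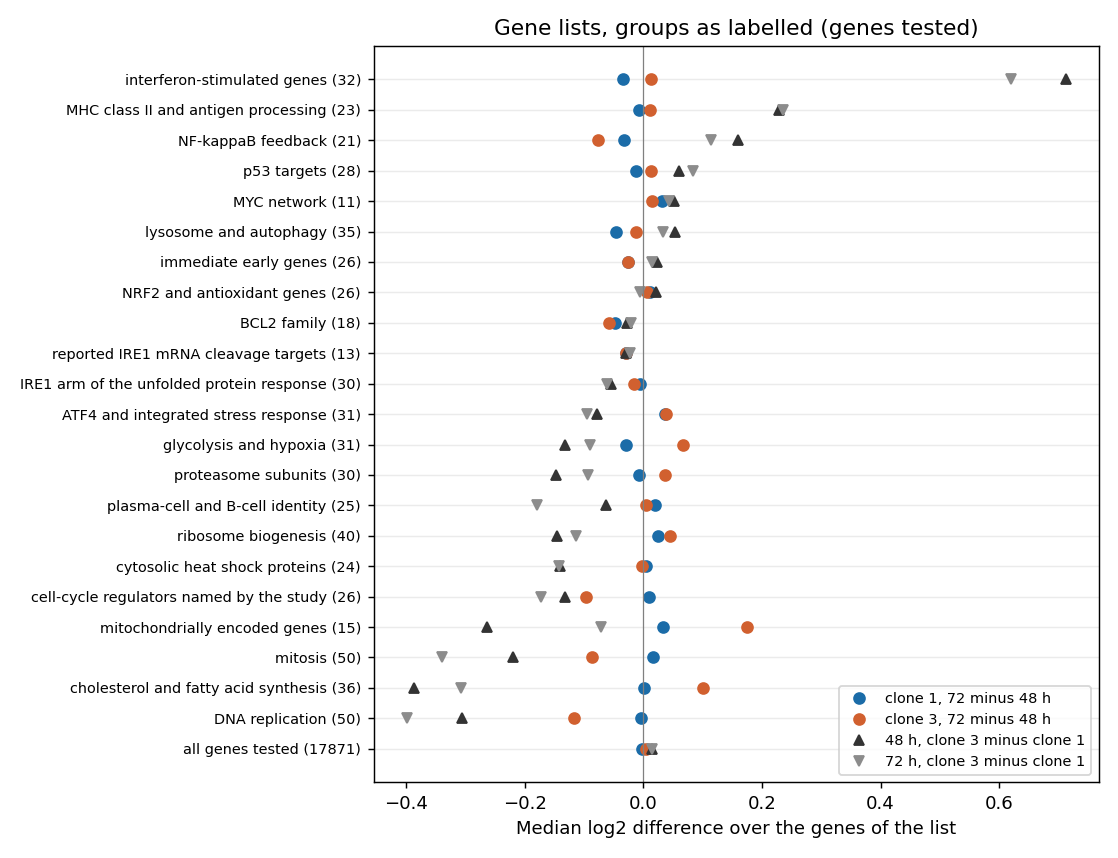
Median fitted log2 difference of each gene list (1 row per list, with all genes tested for comparison) for 72 h minus 48 h in each labelled clone and for clone 3 minus clone 1 at 48 and at 72 h, all as labelled. The interferon list stands at 0.71 and 0.62 and DNA replication at -0.31 and -0.40 between the labelled clones, while the 72 h minus 48 h medians of both lists lie between -0.12 and 0.01.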

How the data were processed

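RNA from AMO1 cells was made into TruSeq stranded mRNA libraries and sequenced in single 50-base reads, per the labels. CPM of single genes are counts per 1e6 of the TMM-scaled library size. The authors deposited raw read counts for 58302 genes and a log2 table of TMM-normalised CPM for 18401 genes; the submitters' processing notes name GSNAP, R 4.1.3, edgeR 3.32.1, limma 3.46.0 and the builds GRCh37 and hg19. For a related experiment the study's methods name a GENCODE annotation and count reads that map unambiguously to exons. For these libraries the annotation and the use of strand in counting are not given in the sources used here. Reads of overlapping genes, antisense pairs and pseudogenes may therefore be shared.

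From the deposited counts, genes were kept by filterByExpr (minimum count 10, total 15), scaled by TMM and tested in R 4.3.3 with the quasi-likelihood test of edgeR 4.0.16, with Benjamini-Hochberg adjustment over all genes tested and a threshold of 0.05. The 12 libraries of a clone were fitted with 1 mean per time, 24 libraries for differences between clones and 36 with shXBP1 clone 1. Values printed are CPM over TMM-scaled library sizes, fitted log2 differences and their SE. Depth was 24300880 to 36141656 counts. The 95% intervals come from the fit and include its estimate of the spread between replicates. The fold bounds of LAMB4, set against 3 counts per library, cover counting error only. Alternatives were RLE size factors, no filter, only the compared libraries, DESeq2 1.42.0, limma 3.58.1 on the deposited log2 table, the replicate number as a block and leaving out single libraries.

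The comparison, its member libraries and the gene lists were chosen with earlier results of these data known. Named genes were ERN1, XBP1, IRF4 and cell-cycle regulators of the study; the 12 largest rises and 12 largest falls called in both clones with mean log2 CPM above 1 and no overlap of libraries; up to 4 members of a list called in both clones and up to 2 called in 1; the 6 largest differences between clones in each direction; the 5 largest plateaus after a rise and after a fall; the 6 largest turns back in each direction; and the 5 largest differences from shXBP1 clone 1 in each direction. The clone marker check, the comparison of clone 3 with clone 1 and the genes named from it were added after the data were seen. Gene positions are from GENCODE 44 on GRCh38 and promoters from RefSeq, matched by gene ID or symbol. Columns of samples outside the comparisons were not used for tests. Some genes that the rule names are not reported here.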

Additional observations from a re-analysis of the deposited data

Results flagged for a closer look

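The change from 48 to 72 h differed between the shIRE1 clones, by the test of that difference, for 3 genes: LGMN by 0.70, LGMNP1 by 0.64 and MTCYBP35 by 0.49 (log2, clone 3 minus clone 1 as labelled). It differed between shIRE1 and shXBP1 clone 1 for 132 genes. Among those named, TLR7 differed by 3.43, HBE1 by 2.95, BTK by 2.51, TMEM132D-AS1 by 1.75 and ARHGEF6 by 1.63, all higher in shIRE1. TENM3 differed by -3.32, AC023824.7 by -2.43 and PFKFB4 by -1.68. The fitted value of LAMB4 was -16.33, which is no bound since its 72 h libraries had no count, and its call was lost with both shXBP1 clones or without shXBP1 clone 1 72 h replicate 3. In the shIRE1 clones, clone and duration cannot be told apart in the differences from shXBP1 clone 1. The 3 differences between the shIRE1 clones subtract both the group labelled clone 1 at 72 h and that labelled clone 3 at 48 h. Exchanging the labels of these groups would leave those differences unchanged.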

How the results depend on the processing

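Of the named genes' values under the alternatives, 5642 kept their call or lack of one, 172 lost the call and 5 gained it. No value called in the main fit or in the alternative changed direction. Changes of sign in values called in neither were not counted. Without a filter on low counts, 249 genes were called in clone 1, 873 in clone 3 and 161 in both, 9 differed between the clones, 136 turned back and 60 moved only after 48 h in clone 1, and 133 continued, 594 turned back and 146 moved only after 48 h in clone 3. DESeq2 gave 60 continued and 36 moved only after 48 h in clone 3 and 6 genes that differed between the clones. At least 1.5-fold in both clones left 58 genes, and a plateau within 1.5-fold held 1420 genes in clone 1 and 1591 in clone 3. The cause of these shifts was not tested, beyond the number of genes a filter leaves and the width allowed.

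Leaving out 1 library at a time gave 99 to 136 calls in clone 1, 80 to 108 in clone 3, 61 to 85 in both, 1 to 3 that differed between the clones, 94 to 135 that differed from shXBP1 clone 1, 3280 to 5222 between clones at 48 h, 2496 to 4133 at 72 h and 1918 to 3178 at both. It left plateaus of 723 to 790 and 638 to 805 genes. In clone 1 it left 25 to 30 continued, 48 to 70 turned back and 21 to 36 moved only after 48 h, and in clone 3 13 to 26, 51 to 72 and 9 to 13.

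Replicate numbers were not taken to pair the libraries, since nothing in the labels ties them and not every same-numbered pair correlated above 0.1: deviations correlated at 0.468, 0.0254 and 0.352 in clone 1, where each library correlated best with its own number in 3 of 3 cases, and at 0.15, -0.271 and -0.16 in clone 3, with 1 of 3. With the replicate number as a block, 104 genes were called in clone 3, of which 67 turned back and 11 moved only after 48 h, and 1 gene differed between the clones. In clone 1 the block left 115 calls, and 69 were shared by both clones. It changed no other count by over 1.5 times. Depth limits genes near 1 CPM. The libraries labelled clone 1 at 72 h and clone 3 at 48 h carry the markers of the other clone.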
